A study of Homo sapiens with 4 samples.

Results

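The genes of cholesterol and fatty acid synthesis were examined by RNA-seq in HaCAT cells, an established human keratinocyte line, after knockdown of the m6A demethylase ALKBH5. The members were 31 genes, listed by name with earlier results of these data known, out of 58735 genes listed in the count tables. They comprise 7 enzymes of the mevalonate pathway, 11 enzymes from squalene to sterols, 6 regulators and transport proteins of the sterol regulatory element-binding protein (SREBP) system, and 7 enzymes of fatty acid synthesis. All 31 were found once in the tables, had between 30 and 111518 counts per library and were expressed highly enough to be tested. Cells of both groups carried 200 pmol of siRNA delivered with lipofectamine 3000, against ALKBH5 in the knockdown cells labelled siALKBH5 and a normal control siRNA in the wild-type cells labelled siControl. Each group had 2 libraries of poly-A RNA, and the time between transfection and harvest was not given in the sources used here. The labels also do not say which ALKBH5 siRNA was used. Other effects of that siRNA cannot be told apart from those of losing ALKBH5. HaCAT is 1 immortalized line, and nothing in the labels says whether the libraries of a group came from separate cultures, so the p-values measure the spread between these libraries, which may be technical.

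Cholesterol is built from acetyl-CoA through the mevalonate pathway to farnesyl diphosphate, then through squalene and lanosterol to the sterol end products. Fatty acid synthesis draws on the same acetyl-CoA. Both are transcribed under the control of SREBP proteins, which SCAP escorts from the endoplasmic reticulum to the Golgi for cleavage when sterols are low, while INSIG proteins hold SCAP back when sterols are high. In the epidermis, keratinocytes use both products, with ceramides, to build the permeability barrier of the skin.

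Library totals ranged from 16017502 to 18837807 counts, and mitochondrial genes took between 9.63% and 10.2% of them, with the lower shares in siALKBH5. ALKBH5, the targeted gene, had 93.8 and 87.6 CPM (counts scaled to a common library size, here with TMM factors between 0.992 and 1.008) in siControl and 51.2 and 49.6 CPM in siALKBH5, which is 55.5% of the control mean. The libraries therefore matched their labels. Of 10 keratinocyte markers (KRT5, KRT14, KRT15, KRT6A, KRT16, KRT17, TP63, ITGB4, DSP and SFN), all were detected, with a summed level of 32958 to 33245 CPM in siControl and 34728 to 34857 CPM in siALKBH5, and by edgeR 6 of them rose and 4 fell (threshold on the adjusted p, 0.05), with 2 falling with DESeq2 or without either siALKBH5 library. Summed levels of the fibroblast, melanocyte, leukocyte and endothelial marker lists stayed between 2.30 and 35.5 CPM, and PDGFRA, PDGFRB, COL1A2, TYR and KDR had 0 counts in every library. Of the fibroblast genes 2 were called lower, DCN and LUM, at 1.52 and 0.888 CPM from 3.59 and 1.89 CPM, but only 1 with DESeq2 or without siControl replicate 1 or either siALKBH5 library. The 1 leukocyte gene called higher, CD14, went from 2.44 to 3.83 CPM, and the leukocyte count was 0 in those same settings. Of the endothelial genes VWF was higher and CDH5 lower, and these counts held in all 11 alternatives. The part of these small levels in the results below was not tested.

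Most lipid synthesis genes rose after ALKBH5 knockdown. Of the 31 genes, 22 were higher, 3 were lower and 6 were not called at an adjusted p under 0.05 by edgeR's quasi-likelihood test, fitted and adjusted over all 15075 genes tested. Over all genes tested, 19.3% were higher and 17.3% were lower by the same rule. The median log2 fold change of the 31 genes was 0.321, against -0.008 for all genes tested. The changes were moderate in size. No member reached a log2 fold change of 1 in size, so 0 of 31 were called by edgeR at that threshold, with 0 at an unadjusted p under 0.05 and 0 by DESeq2. Across all genes 2.92% were called at that threshold in either direction.

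The libraries of a group lay close together. In 24 of the 31 genes both siALKBH5 libraries were above both siControl libraries, in 6 both were below, and in 1 gene, CYP51A1, the groups overlapped. Among all genes tested, 32.8% lay wholly above and 33.5% wholly below in siALKBH5. The log2 fold changes computed within replicate 1 and within replicate 2 differed by less than 0.1 in 20 of the 31 genes. Summed over the 31 genes, the level was 8799 and 8806 CPM in siControl and 11530 and 11464 CPM in siALKBH5. As raw counts, the members took 0.885% and 0.886% of the siControl libraries and 1.14% of both siALKBH5 libraries. In bulk libraries a change in RNA per cell and a change in the share of cells that express a gene cannot be told apart.

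**Figure D1:**
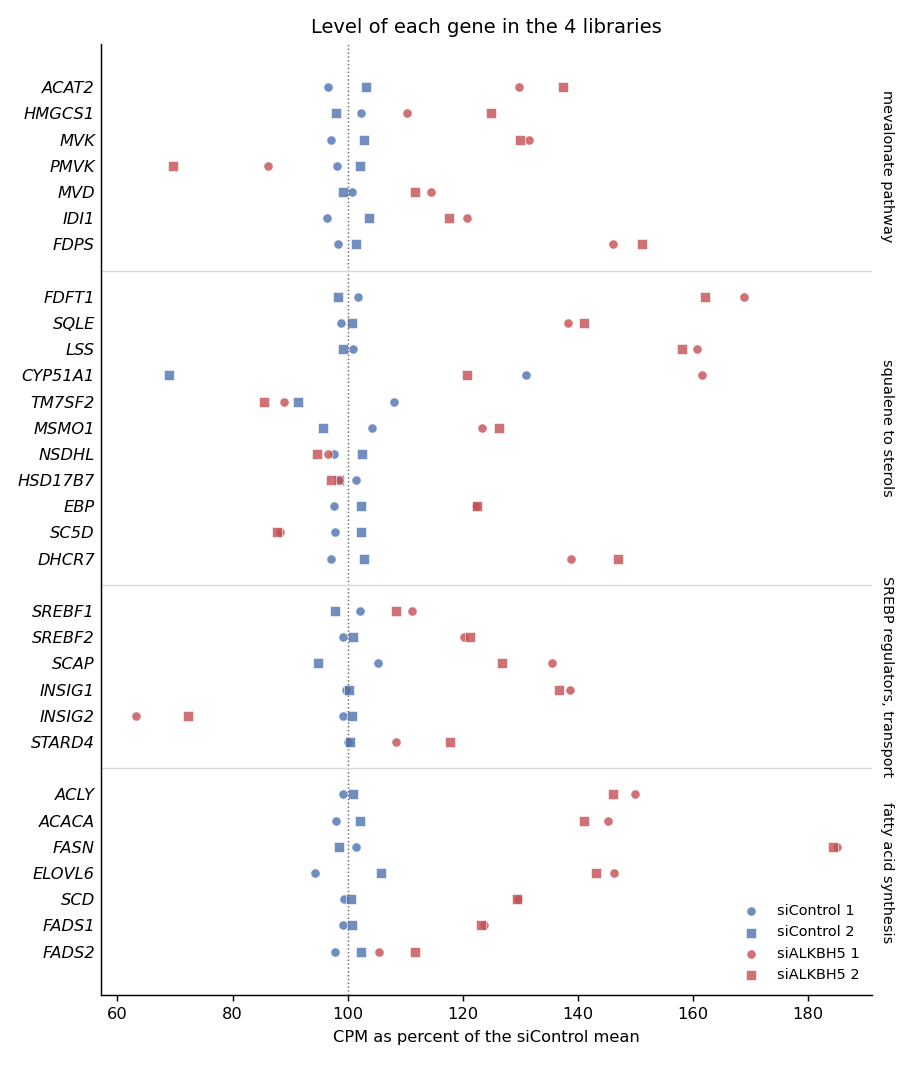
Level of each of the 31 genes in the 4 libraries, as CPM in percent of the siControl mean of that gene, grouped by role, with siControl in blue and siALKBH5 in red, circles for replicate 1 and squares for replicate 2. By the mean of the siALKBH5 libraries, FASN, FDFT1 and LSS are highest, at 185%, 165% and 159% of control. By the same mean INSIG2 and PMVK are lowest, at 67.7% and 77.9%, while single points of other genes can lie farther out.

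The regulators did not all move the same way. Of the 6 genes, 4 were higher, 1 was lower and 1 was not called, with a median log2 fold change of 0.222. SREBF2 encodes SREBP2, which mainly drives cholesterol genes. It had 281.3 and 286.4 CPM in siControl and 341.3 and 343.9 CPM in siALKBH5, a log2 fold change of 0.27 (SE, the standard error, 0.03, edgeR adjusted p = 9.0e-10). SREBF1 encodes SREBP1, which mainly drives fatty acid genes, and its counts combine the transcripts of its SREBP-1a and SREBP-1c forms. It rose the least of the called genes, from 1471 and 1410.0 CPM to 1602 and 1562 CPM, with a log2 fold change of 0.14 (SE 0.02, edgeR adjusted p = 1.2e-06). SCAP, the escort of both proteins, was at 36.2 and 32.6 CPM in siControl and 46.6 and 43.6 CPM in siALKBH5, a log2 fold change of 0.40.

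The INSIG genes, which encode the retention proteins, went in opposite directions. INSIG1, itself a known SREBP target, had 186.2 and 187.2 CPM in siControl and 258.7 and 255.3 CPM in siALKBH5, with a log2 fold change of 0.46 (SE 0.03, edgeR adjusted p = 5.0e-14). INSIG2 had 25.4 and 25.8 CPM in siControl and 16.2 and 18.5 CPM in siALKBH5, with a log2 fold change of -0.57 (SE 0.09, edgeR adjusted p = 9.1e-06). For both genes the gap between the groups was larger than the gap within them. The libraries held 7.33 and 7.24 counts of INSIG1 per count of INSIG2 in siControl and 15.9 and 13.8 in siALKBH5. STARD4, a soluble carrier that moves cholesterol between membranes, had 27.1 and 27.2 CPM in siControl and 29.4 and 31.9 CPM in siALKBH5. Its log2 fold change of 0.17 (95% interval 0.01 to 0.33) did not pass the adjustment, with an adjusted p of 0.086 by edgeR.

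Promoter sequence was available for 27 of the 31 genes, as RefSeq windows of GRCh38.p14 that span 250 bases before to 50 bases after the start site. FASN, ACAT2, FDFT1 and SQLE had no entry. The windows were searched on both strands for 4 motifs. These were the sterol regulatory element TCACNCCAC bound by SREBP, the E-box CACGTG, which SREBP and other basic helix-loop-helix factors bind, the CCAAT box bound by NF-Y, and the GC box GGGCGG bound by Sp1. NF-Y and Sp1 are known partners of SREBP at lipid gene promoters. Stretches for 5 genes are shown. They were chosen to hold a regulator that rose and has a sterol regulatory element (SREBF2) and the INSIG genes that moved in opposite directions. They also hold an enzyme of either pathway with at least 2 CCAAT boxes (MSMO1 and ACLY). Each stretch ends where an exon of a coding gene begins in GENCODE 29, or at the start site. Matches past that end are not shown, among them the E-box of INSIG1 (55 bases before the start site) and a CCAAT box of MSMO1 (34 bases before). Capitals mark matches to the sterol regulatory element, the E-box or the CCAAT box on either strand (ATTGG on the other strand).

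SREBF2, chr22:41832855-41833078, plus strand: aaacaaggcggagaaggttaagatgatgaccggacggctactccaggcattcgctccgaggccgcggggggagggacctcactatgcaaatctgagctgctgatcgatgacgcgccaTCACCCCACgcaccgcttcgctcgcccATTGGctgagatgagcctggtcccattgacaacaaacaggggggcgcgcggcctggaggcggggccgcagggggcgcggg
INSIG1, chr7:155297628-155297775, plus strand: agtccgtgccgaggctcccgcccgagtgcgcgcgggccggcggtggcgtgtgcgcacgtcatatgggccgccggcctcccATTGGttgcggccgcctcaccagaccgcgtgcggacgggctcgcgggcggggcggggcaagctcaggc
INSIG2, chr2:118088221-118088451, plus strand: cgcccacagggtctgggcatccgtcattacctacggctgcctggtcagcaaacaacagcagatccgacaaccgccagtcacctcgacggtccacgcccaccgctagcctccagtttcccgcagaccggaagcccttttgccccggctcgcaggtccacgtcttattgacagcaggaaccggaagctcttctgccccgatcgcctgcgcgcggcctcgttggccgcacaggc
MSMO1, chr4:165327419-165327622, plus strand: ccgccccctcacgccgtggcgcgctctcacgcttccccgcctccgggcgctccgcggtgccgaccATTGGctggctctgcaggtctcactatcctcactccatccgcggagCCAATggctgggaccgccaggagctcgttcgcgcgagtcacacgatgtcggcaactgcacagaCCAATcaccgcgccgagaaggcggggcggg
ACLY, chr17:41919023-41919272, minus strand: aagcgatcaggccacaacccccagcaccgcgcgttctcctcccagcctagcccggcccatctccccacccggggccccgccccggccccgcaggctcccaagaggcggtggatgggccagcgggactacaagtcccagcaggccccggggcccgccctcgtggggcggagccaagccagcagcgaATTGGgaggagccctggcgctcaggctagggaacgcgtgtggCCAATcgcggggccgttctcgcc

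The sterol regulatory element was found in 1 of the 27 windows, that of SREBF2, where it starts 133 bases before the start site, against 1.18% of the 10374 windows of genes tested here and 1.15% of all 27305 windows. A CCAAT box was found in 17 of the 27 windows (63.0%), among them 5 matches each in MVK and NSDHL and 4 in MSMO1, against 36.6% of the windows of tested genes and 35.7% of all windows. By call, it was in 12 of the 18 windows of higher genes and in 5 of the 9 others. The E-box was found in 4 windows, those of SCAP, INSIG1, LSS and SC5D, of which SC5D was lower in siALKBH5, against 10.1% of the windows of tested genes and 7.43% of all windows. The GC box was found in 25 of the 27 windows (92.6%) against 69.6% of the windows of tested genes and 44.6% of all windows. The window of INSIG2 held 1 GC box and none of the other motifs. These matches describe the letters of the windows, and whether a factor bound there was not measured. A single window per gene was searched, for the exact form of each motif given above. A gene without a match may still hold a motif in another form, or elsewhere, such as at another start site. The window of IDI1, at chr10:1056655-1056954, lay beyond the listed end of the gene at 1049170. Other windows lay within the listed span of their gene, among them those of ACLY, FADS1, FADS2 and DHCR7. That of ACLY, on the minus strand, ended at 41919272, while the gene is listed up to 41930542.

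In the mevalonate pathway 6 of the 7 enzymes were higher and 1 was lower, with a median log2 fold change of 0.252. ACAT2, the cytosolic thiolase that joins the first acetyl-CoA units, had 27.9 and 29.8 CPM in siControl and 37.5 and 39.7 CPM in siALKBH5, a log2 fold change of 0.42 (SE 0.07, edgeR adjusted p = 2.8e-05). HMGCS1, the synthase that makes HMG-CoA, rose from 30.5 and 29.2 CPM to 32.9 and 37.2 CPM, a log2 fold change of 0.23 with an adjusted p of 0.018 by edgeR. It was the weakest of the higher calls and was lost without siControl replicate 2, at 0.20 and an adjusted p of 0.11, without siALKBH5 replicate 2, at 0.14 and 0.26, and with DESeq2, at 0.24 and 0.094.

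The kinases that phosphorylate mevalonate in successive steps differed in direction. MVK, mevalonate kinase, was at 59.6 and 63.1 CPM in siControl and 80.7 and 79.8 CPM in siALKBH5, a log2 fold change of 0.39. PMVK, phosphomevalonate kinase, was at 32.1 and 33.4 CPM in siControl and 28.2 and 22.8 CPM in siALKBH5. The log2 fold change of PMVK was -0.36 (SE 0.09, edgeR adjusted p = 0.0012), and without siALKBH5 replicate 2 it was -0.22 with an adjusted p of 0.073. MVD, the decarboxylase that yields isopentenyl diphosphate, and IDI1, the isomerase that follows, had small rises, with log2 fold changes of 0.18 and 0.25. FDPS, farnesyl diphosphate synthase, stands at the branch point to sterols and prenyl groups and had the largest rise of this part of the pathway. Its level was 48.0 and 49.5 CPM in siControl and 71.3 and 73.8 CPM in siALKBH5, a log2 fold change of 0.57 (SE 0.05, edgeR adjusted p = 2.6e-10).

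From squalene onward 6 of the 11 enzymes were higher, 1 was lower and 4 were not called, with a median log2 fold change of 0.321. The steps from farnesyl diphosphate to lanosterol all rose. FDFT1, squalene synthase and the first committed enzyme of sterol synthesis, had 93.0 and 89.9 CPM in siControl and 154.4 and 148.1 CPM in siALKBH5, a log2 fold change of 0.73 (SE 0.04, edgeR adjusted p = 4.3e-16). SQLE, squalene epoxidase, which is a rate-limiting step, went from 27.9 and 28.4 CPM to 39.0 and 39.8 CPM, a log2 fold change of 0.48. LSS, lanosterol synthase, which closes the sterol rings, went from 67.0 and 65.9 CPM to 106.7 and 105.0 CPM, a log2 fold change of 0.67 (SE 0.05, edgeR adjusted p = 5.7e-14).

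The enzymes that convert lanosterol moved unevenly. MSMO1, the C4 methyl sterol oxidase, EBP, the sterol isomerase, and DHCR7, which makes cholesterol in its last step, were higher, with log2 fold changes of 0.32, 0.29 and 0.51. DHCR7 had 100.5 and 106.5 CPM in siControl and 143.7 and 152.2 CPM in siALKBH5, with an adjusted p of 4.4e-12 by edgeR. SC5D, the desaturase that acts just before DHCR7, was lower in both siALKBH5 libraries, at 144.1 and 143.1 CPM against 159.5 and 167.0 CPM in siControl. Its log2 fold change was -0.19 (SE 0.04, edgeR adjusted p = 0.00012). NSDHL and HSD17B7, which complete C4 demethylation with MSMO1, and TM7SF2, a C14 sterol reductase, were not called. Their log2 fold changes were -0.06 (95% interval -0.20 to 0.07), -0.03 (-0.26 to 0.20) and -0.19 (-0.40 to 0.02), so rises as large as that of MSMO1 lie outside these intervals.

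CYP51A1, the lanosterol C14 demethylase, was covered by 51 and 30 reads in the siControl libraries and by 73 and 48 in those of siALKBH5, far fewer than any other member. Its log2 fold change of 0.52 (95% interval -0.03 to 1.07, adjusted p = 0.14 by edgeR) could not be told from 0, and without siControl replicate 1 it was 1.04 with an adjusted p of 0.011. In GENCODE 29, 79.4% of the exonic bases of CYP51A1 also lie in exons of AC000120.2, a coding gene on the same strand that had 0 counts in all 4 libraries. How reads in such shared exons were counted is not given in the sources used here, and the level of CYP51A1 is uncertain for that reason. HSD17B7 has a near-identical copy, HSD17B7P2, which received 58 and 81 reads in the control libraries against 40 and 28 after knockdown, so reads could be split between them. When the counts of such copies were added to those of the parent genes, HSD17B7 was not called either (log2 fold change -0.21) and the numbers of higher and lower members were again 22 and 3. ACAT2 shares 397 exonic bases with TCP1 on the other strand, whose counts came to 431% of those of ACAT2. On that strand it also shares 1141 exonic bases with SOD2 and 1458 with SOD2-OT1, both at 0 counts in all 4 libraries. Other members also share exonic bases with genes on the other strand, among them MVK (306 with MMAB) and SREBF1 (556 with RAI1). Counts of MMAB came to 53.3% of those of MVK, and counts of RAI1 to 10.2% of those of SREBF1. The strand setting of the counting was not given, so the levels of ACAT2 and of such members are uncertain too.

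**Figure D2:**
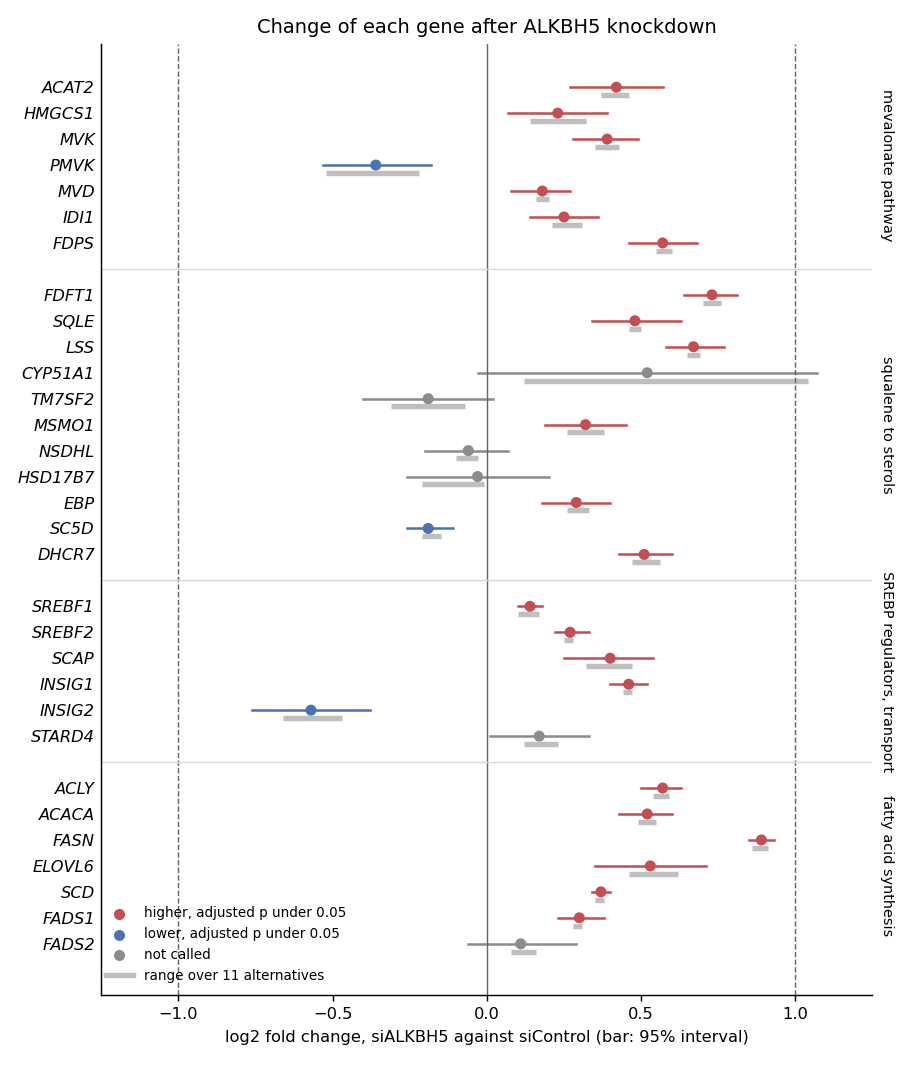
Log2 fold change of siALKBH5 against siControl for each gene, with its 95% interval from the edgeR fit (coloured bar) and, below it in grey, the range over the 11 alternative settings. Every called gene keeps its side of 0 over these settings, no point reaches 1 in size (dashed lines), and CYP51A1 has the widest interval, from -0.03 to 1.07, with a range that ends at 1.04.

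Fatty acid synthesis had the largest group median, 0.517, with 6 of 7 genes higher and 0 lower. FASN, fatty acid synthase, had the largest change of all 31 genes. It had 797.1 and 774.0 CPM in siControl and 1454 and 1449 CPM in siALKBH5, or 185% of control, with a log2 fold change of 0.89 (SE 0.02, edgeR adjusted p = 5.1e-27). Among the members, the enzymes that supply FASN, ACLY and ACACA, rose by similar amounts to each other. ACLY, which cleaves citrate to cytosolic acetyl-CoA, went from 175.5 and 178.5 CPM to 265.4 and 258.5 CPM, a log2 fold change of 0.57 (SE 0.03, edgeR adjusted p = 4.1e-16). ACACA, the carboxylase that makes malonyl-CoA, went from 97.7 and 102.0 CPM to 145.0 and 140.7 CPM, a log2 fold change of 0.52 (SE 0.04, edgeR adjusted p = 2.1e-12).

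The remaining enzymes elongate or desaturate fatty acids, ELOVL6 and SCD acting on products of FASN and FADS1 and FADS2 mainly on polyunsaturated fatty acids. ELOVL6, which extends palmitate to stearate, had 18.1 and 20.3 CPM in siControl and 28.1 and 27.5 CPM in siALKBH5, a log2 fold change of 0.53 (SE 0.09, edgeR adjusted p = 1.0e-05). SCD, the stearoyl-CoA desaturase that makes oleate, was the most abundant member and had 4578 and 4639 CPM in siControl and 5971 and 5962 CPM in siALKBH5. Its log2 fold change was 0.37 (SE 0.01, edgeR adjusted p = 5.1e-21), and it made up between 51.8% and 52.7% of all counts of the members in every library. The share of FASN in the members' counts was 9.06% and 8.79% in siControl and 12.6% in both siALKBH5 libraries. FADS1, the delta-5 desaturase of polyunsaturated fatty acids, rose with a log2 fold change of 0.30, from 127.6 and 129.7 CPM to 159.1 and 158.5 CPM. FADS2, the delta-6 desaturase next to it on chromosome 11, was not called, at 21.8 and 22.8 CPM against 23.5 and 24.9 CPM (log2 fold change 0.11, 95% interval -0.06 to 0.29). FADS1 and FADS2 overlap on opposite strands and share 490 exonic bases. Counts of FADS1 came to 619% of those of FADS2. FEN1, which shares 49 exonic bases with FADS2 on the same strand, had 140%. As the strand setting was not given, the level of FADS2 is uncertain as well.

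Levels of different genes were compared per kilobase of transcript, as FPKM recomputed from the counts. In siControl, SCD stood highest at 859.5 ± 8.07 FPKM (SD, n = 2), followed by SREBF1 at 179.4 ± 5.40, FASN at 83.9 ± 1.74, INSIG1 at 51.1 ± 0.194 and SREBF2 at 37.6 ± 0.480. After knockdown FASN stood at 155.0 ± 0.402 FPKM and SCD at 1113 ± 1.12 FPKM. The enzymes of cholesterol synthesis other than CYP51A1 lay between 2.95 FPKM (HSD17B7) and 29.3 FPKM (SC5D) in siControl. CYP51A1 was at 0.674 ± 0.296 FPKM, where the overlap with AC000120.2 applies.

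**Figure D3:**
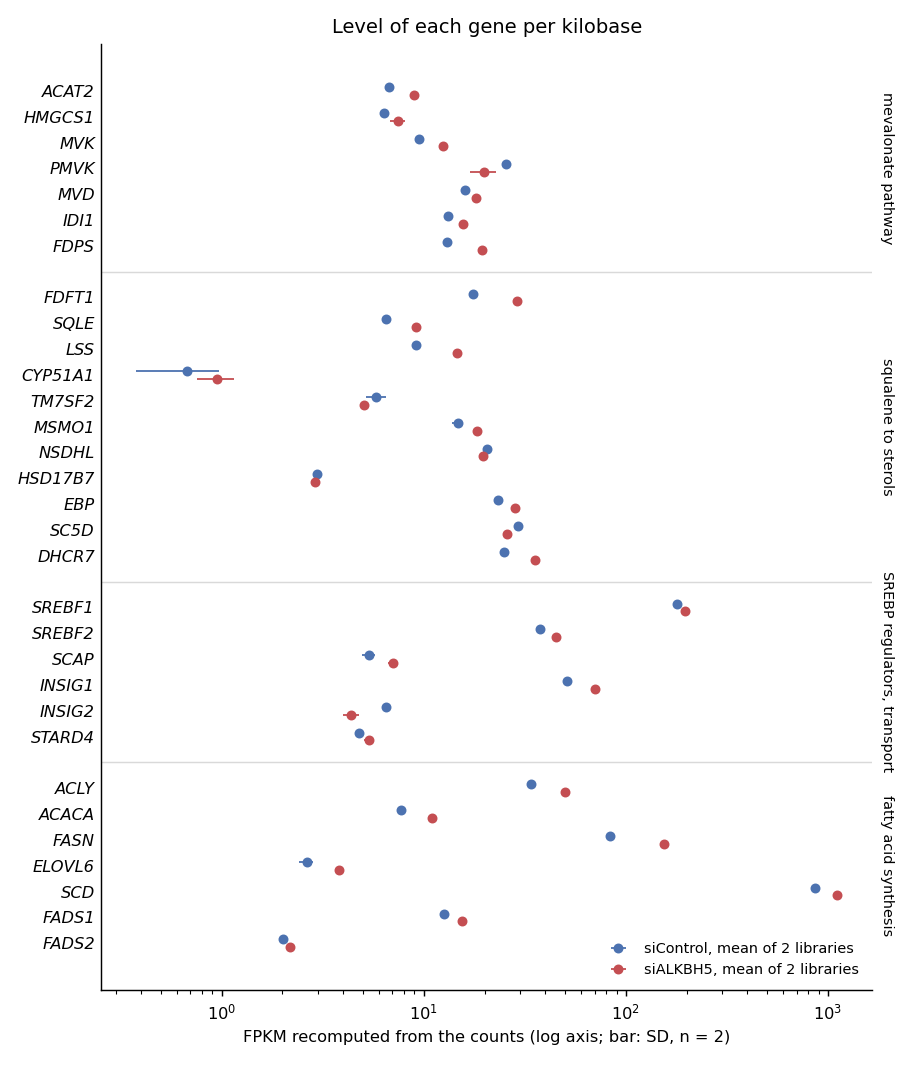
Level of each gene per kilobase of its exons, as FPKM on a log axis, with the mean of 2 siControl libraries in blue, the mean of 2 siALKBH5 libraries in red and bars for the SD. SCD lies highest, at 859.5 FPKM in siControl and 1113 FPKM in siALKBH5, and CYP51A1 lowest, with the widest bars.

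Other genes of lipid metabolism were counted in 8 lists to place the members, with the background of 19.3% higher and 17.3% lower genes. In the list of fatty acid activation, elongation and supply, 12 of the 22 genes tested were higher and 0 were lower, with a median log2 fold change of 0.223. ELOVL5, which elongates polyunsaturated fatty acids, was the gene that rose most in it, from 36.3 ± 3.91 to 66.8 ± 1.28 CPM (SD, n = 2), a log2 fold change of 0.88. The list of redox partners of the sterol enzymes had 5 of 6 genes higher and 0 lower. Most of its genes pass electrons to CYP51A1, SQLE, MSMO1 and SC5D or bind them. The gene not called was FAXDC2, with a log2 fold change of -0.24. The largest rise there was that of CYB5R3, the reductase of cytochrome b5, from 72.4 ± 0.116 to 97.9 ± 4.52 CPM (SD, n = 2), a log2 fold change of 0.43.

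The lists of storage and breakdown also had more higher than lower genes. Glycerolipid synthesis and storage had 6 higher and 2 lower of 13 tested. With DESeq2 4 were higher and 1 lower, and with no filter on low counts 1 was lower. The lower count was also not kept when any single library was left out. LPIN1, a phosphatidate phosphatase that makes diacylglycerol, went from 22.1 ± 0.227 to 48.8 ± 4.37 CPM (SD, n = 2), a log2 fold change of 1.15, and PNPLA2, the adipose triglyceride lipase, fell with a log2 fold change of -0.24. Fatty acid oxidation had 11 higher and 1 lower of 19 tested, but 6 higher without siControl replicate 2, 7 without siALKBH5 replicate 1 and 7 with DESeq2, and 2 lower without siControl replicate 1. ACAA2, a mitochondrial thiolase of low level, went from 1.59 ± 0.664 to 3.58 ± 0.767 CPM (SD, n = 2), a log2 fold change of 1.16, and ACADM, the medium-chain acyl-CoA dehydrogenase, fell with a log2 fold change of -0.43. The median log2 fold changes of these lists were 0.151 and 0.122, below the 0.517 of the fatty acid synthesis members, and the difference was not tested.

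The remaining lists each held at least 1 lower gene, as the lists of storage and breakdown did, against 17.3% lower among all genes tested. SREBP processing and sterol sensing had 2 higher and 2 lower of 12 tested, a share of higher genes near that of all genes. Just 1 was higher with DESeq2, with library size alone or without siControl replicate 2 or either siALKBH5 library, and 1 was lower with DESeq2, with no filter or without either siControl library or siALKBH5 replicate 1. In it RNF145, a ubiquitin ligase, was higher at 0.16, a call lost without siControl replicate 1 or siALKBH5 replicate 2 (adjusted p by edgeR 0.083 and 0.11), and PGRMC1, a sterol-binding membrane protein, was lower at -0.30 on the log2 scale. Sterol efflux and its nuclear receptors (LXR) had 0 higher and 1 lower of 6 tested by edgeR. The lower gene was ABCA1, the cholesterol exporter, at 1.81 ± 0.107 CPM in siControl and 0.941 ± 0.0439 CPM in siALKBH5 (SD, n = 2), with an adjusted p of 0.042 by edgeR. That call was lost with DESeq2 (adjusted p = 0.18) and without any single library (edgeR adjusted p 0.10 to 0.19). Esterification, uptake and transport of sterols had 5 higher and 2 lower of 13, led by the sterol transfer genes GRAMD1B at 0.87 and GRAMD1C at -0.37 on the log2 scale. The call of GRAMD1B was lost with DESeq2 and without either siControl library or siALKBH5 replicate 1, and that of GRAMD1C with DESeq2 and without siALKBH5 replicate 1. Neither lower call of this list was made in those last settings, and 1 lower call was made without siControl replicate 1. The isoprenoid branch and prenylation had 6 higher and 3 lower of 14 (1 lower with DESeq2 or without siALKBH5 replicate 1), led by COQ2 of ubiquinone synthesis at 0.52 and NUS1 of dolichol synthesis at -0.36.

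**Figure D4:**
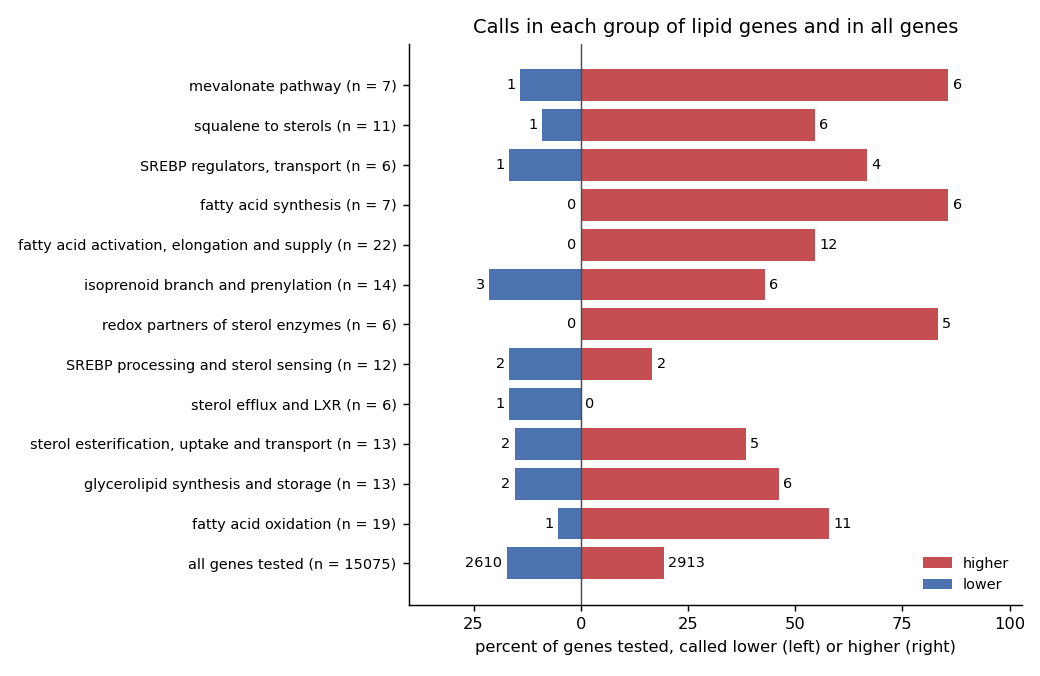
Percent of the genes tested in each group that were called higher (red, right) or lower (blue, left) at an adjusted p under 0.05, with the number of genes at the end of each bar and the number tested in brackets. The mevalonate and fatty acid synthesis members have 6 of 7 genes higher, while all genes tested have 19.3% higher and 17.3% lower.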

How the data were processed

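The members and the gene lists were chosen with earlier results of these data known. The submitters' processing notes name hg38, the aligner HISAT2 2.0.5 and the read counter featureCounts 1.5.0-p3, and the authors deposited raw counts per gene in 2 tables, each with 1 library per group. The tables also hold FPKM scaled within each table and the authors' comparison of 1 library with 1 (fold changes and p-values), and neither was used. The identifiers and coordinates of the 31 members are those of GENCODE 29 on GRCh38.

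The 4 libraries (2 per group, 16017502 to 18837807 counts, which limits precision by counting error for low genes) were fitted without covariates by the quasi-likelihood test of edgeR 4.0.16 (R 4.3.3), after filterByExpr and TMM scaling, with Benjamini-Hochberg adjustment over 15075 genes. The common coefficient of biological variation came to 0.0253. Standard errors are the log2 fold change over the root of the F statistic. Chi-square values per degree of freedom were 1.74 and 1.85 within groups and 18.2 to 20.3 between groups, so no library was counted as a copy of another. The fit was first checked on simulated counts. With 2 libraries against 2 there are 3 splits, so no exact permutation test could reach 0.05. Alternatives were DESeq2 1.42.0, its size factors within edgeR, scaling by library size alone, filtering by a mean of 10 counts or not at all, a replicate block, each library left out, and counts summed with pseudogenes. Named list genes were, per list, the called gene with the largest change in each direction at a mean CPM of at least 1.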

Additional observations from a re-analysis of the deposited data

How the results depend on the processing

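Over the 11 alternatives, 21 of the 22 higher and 2 of the 3 lower members were called each time, the exceptions being HMGCS1 and PMVK, and all 25 kept their direction. The higher members numbered from 21 to 23 and the lower members 2 or 3. With DESeq2, 1444 of all genes were lower, against 2610 in the main test. When libraries were left out singly, the all-gene counts ranged from 2366 to 2528 higher and from 1961 to 2124 lower. The number of members at a log2 fold change of at least 1 ranged from 0 to 1, the 1 being CYP51A1 without siControl replicate 1, and these fits assume that the lone library varies like the other group. In the same fits without 1 library, the median log2 fold change ranged from 0.26 to 0.32 for the mevalonate members, 0.26 to 0.38 for the sterol members, 0.21 to 0.26 for the regulators and 0.46 to 0.55 for the fatty acid members. The medians with all libraries were 0.25, 0.32, 0.22 and 0.52. With library size only, the mevalonate median was 0.23, the regulator median 0.20, and the median of all genes was -0.030. The replicate block gave 22 higher and 3 lower members, with 3091 higher and 2831 lower genes, and changed no call of a member. Same-numbered libraries share a deposited table, and the correlation of their deviations over genes was 0.049, which with 2 pairs does not show whether they were paired. Of the list counts, 246 of 286 stayed within 1.5 times of the main count. Low counts limit CYP51A1 above all, with at most 73 per library, and why they were low was not tested.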
